A study of Mus musculus with 10 samples.

Results

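The 10 RNA-seq libraries of this series, all of them of antigen-specific germinal center (GC) B cells, were described as 1 group with no contrast between them. All 10 of the 10 samples entered, 1 library per mouse: 2 were labelled ZBTB38 WT (Zbtb38 fl/fl mice that carry no Cre), 2 ZBTB38 HET (Zbtb38 fl/+ x Vav-Cre) and 6 ZBTB38 KO (Zbtb38 fl/fl x Vav-Cre). Every mouse had thus at least 1 floxed allele, and Vav-Cre, which is active mainly in hematopoietic cells, was present in the HET and KO mice only. Deletion of the floxed exon removes all of the coding part of Zbtb38, the floxed line came from a single founder, and all groups were of the strain labelled C57Bl6/N. Per the study's methods, mice received NP-OVA in alhydrogel (the hapten 4-hydroxy-3-nitrophenyl-acetyl on ovalbumin) and GL7+IgD- B cells that bound NP were sorted 2 weeks later, whereas the treatment label reads untreated. The labels give no age. Levels are TPM, the share of transcripts that belongs to a gene after division by transcript length, scaled so that it sums to the same total in every library. Transcript TPM were summed for each of 22366 gene symbols, and genes were ranked by their median over the 10 libraries.

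GCs are sites within B cell follicles in which B cells that have met antigen divide, mutate their immunoglobulin genes and compete for antigen and T cell help. Cells in the dark zone divide and mutate, and cells in the light zone test the resulting receptor and present antigen to T cells on MHC class II. BCL6 is the transcriptional repressor that defines the state. In C57BL/6 mice, the response to NP is known for antibodies that pair the VH segment Ighv1-72 (also called VH186.2) with a lambda-1 light chain.

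The libraries held between 26612431 and 41059082 estimated counts, and at a TPM near 1 a gene had a median of 53.8 estimated counts. Spearman correlations of gene levels between libraries ranged from 0.942 to 0.968, and from 0.954 to 0.968 without KO replicate 6, which had the lowest values with every other library. Zbtb38 (chr9:96682770-96752831, minus strand, GRCm38) was at 63.5 and 63.3 TPM in the WT libraries and at 49.6 in both HET libraries. In the KO libraries it ranged from 17.5 to 46.1 TPM, and the highest of these values belonged to the library labelled KO replicate 2, which was closer to the HET than to the other KO libraries (17.5 to 23.7 TPM). Gene-level TPM also counts exons outside the deleted one, so that this value checks the labels only in part.

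To ask whether the 10 libraries could be described as 1 group, genotype was tested for each gene with edgeR's quasi-likelihood F test. Of 14351 genes tested, 2 were called at an adjusted p under 0.1, which is 0.0139% of genes tested. These were Zbtb38 (adjusted p = 0.0473) and Hnrnpll (adjusted p = 0.0746), which encodes a splicing factor. Hnrnpll was at 2.48 and 2.62 TPM in the WT libraries, was listed at 0 in both HET libraries and ranged from 0.812 to 2.13 TPM in the KO libraries. None of the 100 most abundant genes and none of the 12 GC marker genes was called by this test, and 2 and 0 of them had an unadjusted p under 0.05. Such a p was more frequent in the sets that follow, none of which held a called gene. It was found for 4 of 8 naive and memory B cell markers and 4 of 8 T cell markers. The same held for 4 of 9 myeloid markers, 3 of 7 plasma cell markers and 44 of 229 immunoglobulin genes tested. In all, 930 of the 14351 genes tested had an unadjusted p under 0.05, and DESeq2's likelihood ratio test called 254 genes. By edgeR, no gene was called when either WT library, either HET library or KO replicate 1, 3, 4 or 5 was left out (462 to 1023 genes at an unadjusted p under 0.05), 1 gene was called without KO replicate 2 and 3 genes without KO replicate 6. With groups of 2, 2 and 6 the absence of a call does not show that a level was the same in all genotypes.

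The GC identity of the sort was visible in all libraries. All 12 genes of the GC marker list were at a TPM of at least 1 in every library, and also at a TPM of at least 10 in every library. Bcl6 (chr16:23965052-23988852, minus strand), the GC repressor, had a median of 99.9 TPM (59.3 to 122). S1pr2, the receptor that confines B cells to the follicle centre, had a median of 137 TPM (71.0 to 185). Mki67, a gene of dividing cells, had a median of 73.5 TPM (50.7 to 103), and Fas, the death receptor carried by GC B cells, had a median of 197 TPM (161 to 229). For Bcl6, S1pr2 and Fas the lowest of the 10 values was that of KO replicate 6, and for Mki67 that of KO replicate 1.

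The signalling regulator Rgs13 was at 368 TPM (290 to 550), the GC-associated adaptor Gcsam at 285 TPM (129 to 354), Basp1 at 193 TPM (103 to 241) and Nuggc, a GC-associated nuclear GTPase, at 137 TPM (64.2 to 185). The lowest member was Mybl1, a transcription factor of the MYB family, at 29.4 TPM (18.5 to 39.8). The highest member was the pan-B-cell gene Ms4a1, which encodes CD20, at 1118 TPM (966 to 1187). In KO replicate 6, 9 of the 12 genes were at their lowest, and the summed level of the list was 3133 TPM there and 3507 to 4650 TPM in the other 9 libraries. In a bulk sample, fewer GC cells and less of these RNAs per cell cannot be told apart.

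Genes of both GC zones were present in each library. All 6 dark zone genes and all 6 light zone genes of the lists used here were at a TPM of at least 1 in every library, with summed levels of 1032 TPM (768 to 1260) and 958 TPM (846 to 1075). The dark zone list shares Gcsam and 1 other gene with the GC list. Within the dark zone list, Ccnb1, a mitotic cyclin, was at 251.5 TPM (206 to 302) and the chemokine receptor gene Cxcr4 at 40.5 TPM (28.6 to 58.4). Polh, which encodes the error-prone polymerase eta of somatic hypermutation, was at 40.2 TPM (20.8 to 67.3). Within the light zone list, Cd83 was at 301 TPM (196 to 387), the costimulatory gene Cd86 at 127 TPM (90.1 to 181) and Myc at 50.4 TPM (40.8 to 56.0). Nfkbia, an inhibitor of NF-kappaB, was at 195 TPM (167 to 242), Bcl2a1b, a survival gene with near-identical copies, at 149 TPM (132 to 217) and Il4i1 at 119 TPM (101 to 173). Both dark and light zone cells fall within the sort gate, so that the proportion of the zones was not measured.

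**Figure D1:**
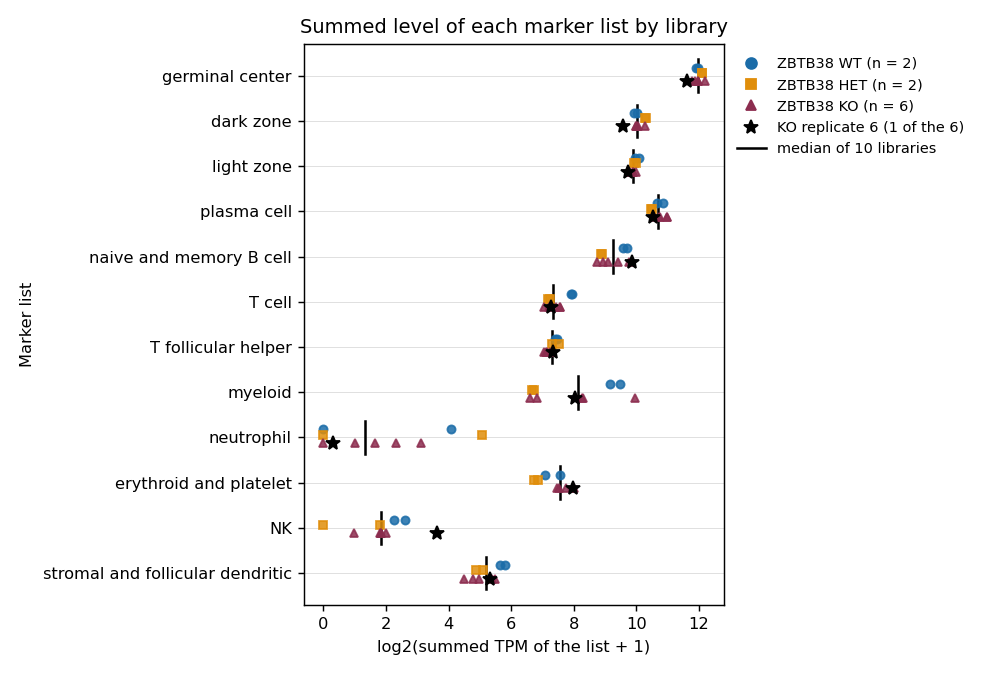
Summed TPM of 12 marker lists in each library, as log2(summed TPM + 1) on the x axis, with 1 row per list, 1 symbol per library and a line at the median of the 10 libraries. The germinal center list lies furthest to the right (3133 to 4650 TPM), and the myeloid list spans 95.1 to 994 TPM.

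Markers of other cells were present at levels that differed between the lists. Of the plasma cell list, the surface marker Sdc1 (CD138) had a median of 5.96 TPM (0.786 to 12.5) and the master regulator Prdm1 4.47 TPM (0.663 to 7.68), against 1221 TPM for Jchain (1082 to 1467). All 8 genes of the naive and memory B cell list were at a TPM of at least 1 in every library. The highest was Fcer2a, which encodes the IgE receptor CD23, at 205 TPM (146 to 266), a median above those of Bcl6, S1pr2, Mki67 and Fas. Cr2, which encodes the complement receptor CD21, was at 124 TPM (67.4 to 142). Ighd was at 69.1 TPM (40.9 to 177), although IgD-negative cells were sorted, and the quiescence factor Klf2 at 71.4 TPM (27.1 to 160). The summed level of this list was highest in KO replicate 6 (936 TPM) and lowest in KO replicate 1 (431 TPM).

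Among the genes of the T cell receptor complex, Cd3e had a median of 6.39 TPM (1.74 to 19.8), Cd3g one of 8.56 TPM (2.67 to 27.2) and Trac one of 20.7 TPM (7.15 to 47.8). All of these were highest in the WT libraries, and they were not called by edgeR (adjusted p of 0.545, 0.582 and 0.547) but by DESeq2's likelihood ratio test (adjusted p of 0.00148, 0.0149 and 0.00697). The kinase gene Lck, of the same list, was at 119 TPM (77.0 to 124), the highest median of the list. Lck was the only 1 of the 8 genes of the list that was lowest in KO replicate 6. Whether its RNA came from T cells or from B cells was not tested. Of the T follicular helper list, Il21 was near 0 (median 0.170 TPM), and Cxcr5, which B cells also use, was at 143 TPM (124 to 180). Of the myeloid list, Lyz2, the lysozyme of macrophages and neutrophils, was at 20.2 TPM in KO replicate 1 and at 694 TPM in KO replicate 4, with a median of 86.4, and the complement genes C1qa, C1qb and C1qc of macrophages had medians of 22.2, 49.4 and 35.5 TPM. The globin gene Hbb-bt was at 105 TPM (96.4 to 177), and reads of globin genes can be split between near-identical copies. Of the neutrophil, NK and stromal lists, Pecam1, which B cells also express, was at 35.9 TPM (21.6 to 54.6), Nkg7 at 1.94 TPM and every other gene had a median under 1 TPM. The part of these other cells in the values below was not tested.

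Transcription was shared among many genes. A TPM of at least 1 was reached by 9521 genes (42.6% of 22366) in every library, by 12648 genes in at least 1 library and by 10430 to 11330 genes in a single library. Another 4857 genes (21.7%) were listed at 0 in all 10 libraries. For a transcript with an effective length of 1000 bases, 3 estimated counts correspond to 0.0988 to 0.153 TPM. The same counts give a lower TPM for a longer transcript and a higher TPM for a shorter one, so that no single TPM is the limit of detection. Without KO replicate 6 the number of genes at a TPM of at least 1 in every library was 9756, and 235 genes were under this level in KO replicate 6 alone. A TPM of at least 100 was the median of 1784 genes, and a TPM of at least 1000 that of 132 genes. Ordered by median, the 10 highest genes held 10.1% of TPM (9.39 to 11.7), the 100 highest 29.6% (29.0 to 33.6) and the 1000 highest 65.7% (64.1 to 71.4).

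**Figure D2:**
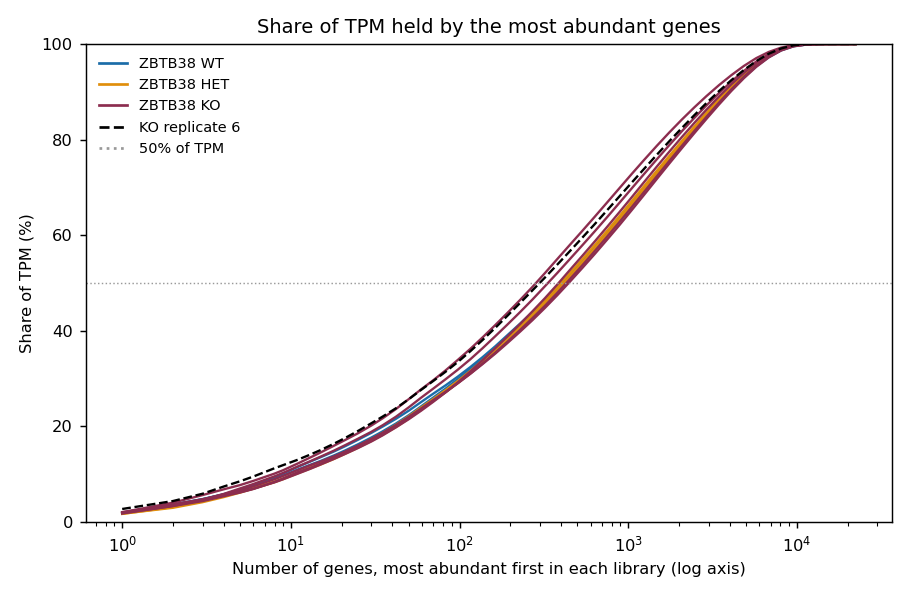
Share of TPM (y axis, percent) held by the most abundant genes of each library, ordered within that library (x axis, number of genes, log axis), with 1 line per library and a dotted line at 50%. The lines cross 50% at between 285 genes (KO replicate 1) and 444 genes (KO replicate 4), with a median of 401.5 genes.

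The most abundant RNAs were those of immunoglobulin, protein synthesis, respiration and antigen presentation. Of the 100 highest genes, 22 encode cytosolic ribosomal proteins, 15 are immunoglobulin genes, 8 are encoded by the mitochondrial genome, 7 belong to MHC and antigen loading and 7 to actin, tubulin and their partners, and 29 fall in none of the classes set by gene symbol. By share of TPM, the 259 immunoglobulin genes led with a median of 9.78% (7.48 to 12.9). Cytosolic ribosomal proteins followed with 8.29% (6.88 to 9.72), mitochondrially encoded genes with 4.66% (3.49 to 7.25), MHC and antigen loading with 4.02% (3.72 to 4.44) and nuclear-encoded subunits of oxidative phosphorylation with 3.47% (3.06 to 4.24). The ranges of the first and the second class overlap, whereas those of the ribosomal proteins and MHC genes do not. The mitochondrial share was highest in KO replicate 6 and that of MHC genes lowest there.

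Cd74, the invariant chain that escorts MHC class II, was the most abundant gene outside the immunoglobulin loci, with a median of 17556 TPM (15340 to 20585), and its values in all 10 libraries lay within 1.34-fold. The class II chains followed with 6944 TPM for H2-Ab1 (5692 to 7562), 3905 TPM for H2-Aa (3273 to 4515) and 2730 TPM for H2-Eb1 (2127 to 2913). All of these were lowest in KO replicate 6 and highest in KO replicate 1. The highest mitochondrial genes were mt-Co3, a subunit of cytochrome c oxidase, at 11894 TPM (8657 to 16604) and mt-Atp6, a subunit of the ATP synthase, at 9002 TPM (6087 to 15026). Both were highest in KO replicate 6, and they overlapped with each other and with Actb at 9051 TPM (7073 to 10602).

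The actin cytoskeleton was represented by Actb and, beyond it, by the actin-binding genes Tmsb4x at 6996 TPM (6207 to 8954), Pfn1 at 4100 TPM (3665 to 5108) and Coro1a at 3045 TPM (2429 to 3139). Ppia, a peptidyl-prolyl isomerase, was at 6070 TPM (5441 to 7612) and Cd52, a lymphocyte surface glycoprotein, at 4712 TPM (4042 to 5716). Hist1h2ap, a replication-dependent H2A gene of a family with near-identical copies, was at 4546 TPM and ranged from 3259 in KO replicate 4 to 6609 in KO replicate 1, while H3f3a, a replication-independent H3 gene, was at 3696 TPM (3246 to 4529). The ribosomal protein gene Rps27 was at 3789 TPM (3060 to 5109). By TPM, Cd52, Hist1h2ap and Rps27 ranked 13, 14 and 20 of all genes. By median CPM of estimated counts, with no division by transcript length, they ranked 85, 96 and 415. Other members of the highest 25 were mt-Co2, mt-Co1, mt-Cytb, mt-Nd1, the ubiquitin gene Ubb, Gapdh of glycolysis, the ferritin gene Fth1 and the surface gene Ly6e, with medians from 2735 to 6428 TPM. The next gene in order, Oaz1, had a median of 2646 TPM against 2730 TPM for the last of the 25, so that the end of the list is not sharp.

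**Figure D3:**
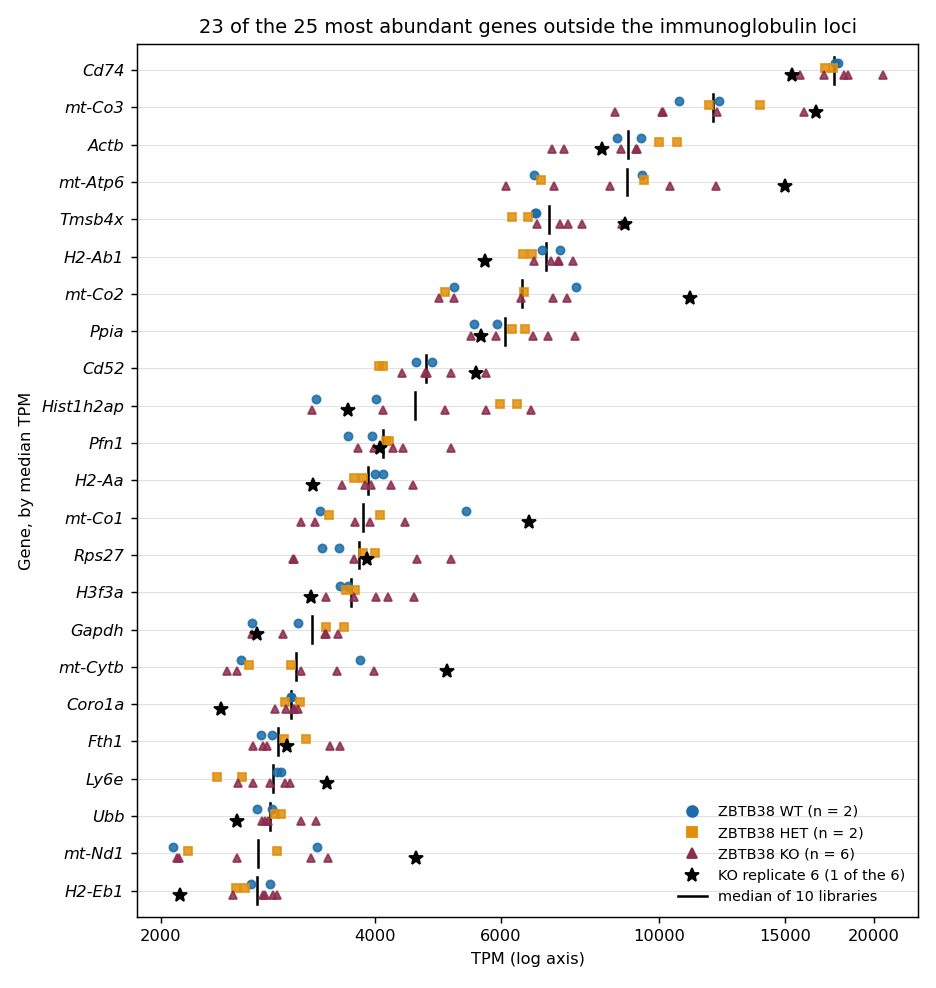
TPM (x axis, log axis) of 23 of the 25 genes with the highest median outside the immunoglobulin loci, 1 row per gene and 1 symbol per library, with a line at the median. Cd74 lies above all others but for an overlap with mt-Co3, and KO replicate 6 (star) is highest for mt-Co3, mt-Atp6, mt-Co2, mt-Co1, mt-Cytb, mt-Nd1, Tmsb4x and Ly6e and, of the genes shown, lowest for Cd74, H2-Ab1, H2-Aa, H2-Eb1, Coro1a, H3f3a and Ubb.

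The cells carried the machinery of division. All 38 genes of the DNA replication class were at a TPM of at least 1 in every library, led by Pcna at 460 TPM, Mcm6 at 437 TPM and the ribonucleotide reductase gene Rrm2 at 431 TPM. Of 84 mitosis genes, 65 were at this level in every library, led by Ube2c at 488 TPM, Birc5 at 394 TPM and Cdc20 at 336 TPM. The replication class held 0.641% of TPM (0.505 to 0.734) and the mitosis class 0.628% (0.523 to 0.721). In both classes the lowest share was that of KO replicate 6 and the highest that of HET replicate 2.

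Among immunoglobulin genes, the constant kappa gene Igkc (chr6:70726435-70726966, plus strand) had the highest median TPM of all genes, at 18880 TPM (12446 to 27454). Cd74 was above Igkc in 5 of the 10 libraries, and by median CPM of estimated counts Cd74 ranked 1 and Igkc 6. Iglv1 (chr16:19085017-19085500, minus strand), the variable segment of the lambda-1 chain, was at 8600 TPM (4086 to 13197) and the lambda-1 constant gene Iglc1 at 7887 TPM (4650 to 11473). Both were lowest in KO replicate 6 and highest in KO replicate 3. The lambda constant genes together held 44.3% of light chain constant TPM (32.0 to 53.3), and Iglv1 held 86.7% of the TPM of the 2 Iglv genes in the table (70.0 to 92.3). Both of these shares were lowest in KO replicate 6. Reads of the constant genes Iglc1, Iglc2 and Iglc3 can be split between similar copies, so that the single values are less certain than their sum.

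In the heavy chain, Ighm was at 4910 TPM (2643 to 9946) and Ighg1 at 2286 TPM (249 to 2504). The WT libraries had 7568 and 7972 TPM of Ighm, the HET libraries 2643 and 3139, and the KO libraries from 3523 to 9946. By Ighm, the libraries thus spread over 3.76-fold, and genotype was not called (adjusted p = 0.723, edgeR). The 4 Ighg genes held 44.9% of heavy constant TPM, with the lowest share (15.1%) in KO replicate 6 and the highest in HET replicate 1. Ighg2b had a median of 999 TPM, Ighg2c 407 TPM, Ighg3 291 TPM, Igha 74.4 TPM and Ighe 46.4 TPM. Ighg1 was the highest of the Ighg genes in 9 of 10 libraries (Ighg2c in KO replicate 6), with 249 TPM in KO replicate 6 against 1213 to 2504 TPM in the other 9.

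Ighv1-72 (chr12:115757984-115758461, minus strand) was the highest of 115 Ighv genes in 9 of 10 libraries. It held a median of 17.6% of Ighv TPM, up to 25.6% in KO replicate 3, and 2.69% in KO replicate 6, where Ighv3-6 was highest with 8.29%. In TPM, Ighv1-72 had a median of 2027 and ranged from 468 in KO replicate 6 to 2978 in KO replicate 4. The kappa variable genes had no such constant leader. Of 101 Igkv genes, Igkv14-111 was highest in 6 libraries, Igkv17-127 in 2 and Igkv3-4 and Igkv6-15 in 1 each, and the share of the highest gene ranged from 5.93 to 22.7%.

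TPM divides by transcript length, which weighs on the immunoglobulin genes. The joining (J) segments are 38 to 54 bases long in the annotation used, and 6 of them (Iglj1, Igkj5, Igkj1, Igkj4, Igkj2 and Ighj4) were among the 15 highest immunoglobulin genes with medians from 1200 to 1936 TPM. Such a value rested on a median of 276 estimated counts for Igkj5 and of 314 for Iglj1, against 387017 for Cd74. Immunoglobulin genes held 2.31% of estimated counts (1.66 to 3.25), as opposed to 9.78% of TPM, and without transcripts under 100 bases they held 8.69% of TPM.

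Of 947 genes classed by symbol as transcription factors, 488 (51.5%, against 42.6% of all genes) were at a TPM of at least 1 in every library. A median TPM of at least 100 was reached by 28 of them, and the class held 1.61% of TPM (1.25 to 1.71). Mef2b (chr8:70139711-70167488, plus strand), a MADS-box factor that acts on Bcl6, was the highest by median TPM. It had 548 and 513 TPM in the WT, 588 and 625 TPM in the HET and 291 to 694 TPM in the KO libraries. KO replicate 6 was low (291 TPM) and the other 9 libraries lay between 485 and 694 TPM. Spib, an ETS factor of B cells, followed with 460 TPM (284 to 561), and Irf8, its frequent partner, with 418 TPM (300 to 452). The related Mef2c was at 365 TPM (243 to 455). By median CPM of estimated counts, the ranks over all genes were 115 for Irf8, 162 for Spib, 220 for Mef2c and 285 for Mef2b. Zfp706 (212), Ets1 (218) and Tcf3 (241) also ranked above Mef2b on that scale.

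Beyond these, the highest 15 comprised Irf5 at 267 TPM, Tcf3, the E protein of B cell specification, at 264 TPM, Tfdp1, the E2F partner, at 235 TPM, Xbp1, the factor of the unfolded protein response, at 214 TPM and Trp53 at 176 TPM. Spi1, which encodes PU.1, was at 170 TPM, Ets1 at 156 TPM, the Ikaros family member Ikzf3 at 152 TPM and Foxp1 at 151 TPM. The zinc finger genes Zfp706 (437 TPM) and Zfp207 (240 TPM) were also in this group. Bcl6, with 99.9 TPM, came at place 29 among the transcription factors. Neighbours in this order overlapped throughout, as with Irf5 (223 to 298 TPM) and Tcf3 (155 to 305 TPM). By family, 15 of 16 IRF and STAT genes and 14 of 16 genes of the MYB, E2F and p53 class were at a TPM of at least 1 in every library, against 10 of 44 forkhead genes, 21 of 91 homeobox, POU and PAX genes and 9 of 46 nuclear receptors.

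**Figure D4:**
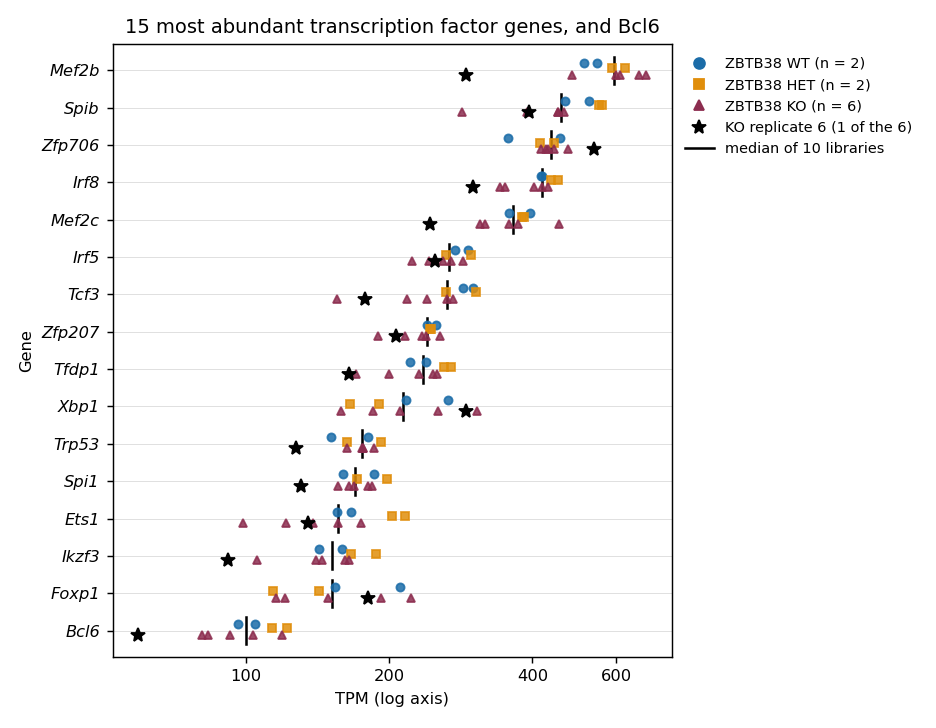
TPM (x axis, log axis) of the 15 transcription factor genes with the highest median and of Bcl6, with 1 symbol per library and a line at the median of the 10 libraries. Mef2b is highest at a median of 594 TPM, and KO replicate 6 (star) is the lowest library for Mef2b, Irf8, Mef2c, Tfdp1, Trp53, Spi1, Ikzf3 and Bcl6 and the highest for Zfp706.

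Promoter sequence is shown for Mef2b, as the highest transcription factor by median TPM, and for H2-Aa and H2-Eb1, as class II genes among the most abundant. Each run is the 250 bases before and 50 bases after the RefSeq start (GRCm38.p6), written 5′ to 3′ on the strand of the gene. Capitals mark 2 motifs, each searched on both strands: the extended Y box CTGATTGG, bound by NF-Y, and the octamer ATTTGCAT, bound by OCT factors.
Mef2b, chr8:70152511-70152810, plus strand: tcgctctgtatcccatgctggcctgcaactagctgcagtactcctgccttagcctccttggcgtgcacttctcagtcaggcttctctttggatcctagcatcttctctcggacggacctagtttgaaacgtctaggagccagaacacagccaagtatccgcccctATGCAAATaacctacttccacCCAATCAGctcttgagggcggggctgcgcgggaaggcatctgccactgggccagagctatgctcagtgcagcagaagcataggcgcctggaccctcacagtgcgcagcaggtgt
H2-Aa, chr17:34287774-34288073, minus strand: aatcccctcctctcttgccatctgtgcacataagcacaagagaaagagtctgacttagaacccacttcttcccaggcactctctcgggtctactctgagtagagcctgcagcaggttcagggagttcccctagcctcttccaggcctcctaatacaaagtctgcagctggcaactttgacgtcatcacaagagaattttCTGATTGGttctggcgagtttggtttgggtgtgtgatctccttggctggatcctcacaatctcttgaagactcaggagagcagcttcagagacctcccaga
H2-Eb1, chr17:34305617-34305916, plus strand: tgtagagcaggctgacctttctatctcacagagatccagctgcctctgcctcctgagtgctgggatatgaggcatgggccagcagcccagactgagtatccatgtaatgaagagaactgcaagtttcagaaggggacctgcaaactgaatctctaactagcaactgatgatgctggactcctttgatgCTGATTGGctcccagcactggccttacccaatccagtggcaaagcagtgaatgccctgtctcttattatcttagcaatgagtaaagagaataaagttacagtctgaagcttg
In H2-Aa and H2-Eb1 the extended Y box begins 51 and 62 bases before the start. Mef2b holds its reverse complement 64 bases before the start, and 85 bases before the start the reverse complement of the octamer.

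Of 15137 genes with a promoter in the RefSeq set, 4.92% held the extended Y box and 1.68% the octamer. Among 33 genes of the MHC and antigen loading class, 18 (54.5%) held the extended Y box and none the octamer. The reverse complement of the extended Y box contains CCAAT, so that it also counts as a CCAAT box, which 38.5% of all promoters and 87.9% of the MHC class held. Promoters of genes with a median TPM of at least 100 had a median of 21 CpG dinucleotides in 300 bases and 65.3% held the GC box GGGCGG. Those of genes with a median TPM from 1 to under 100 had the same median, 21, and 64.9% held the GC box, against 15 CpG dinucleotides and 49.2% over all promoters. Promoters of genes listed at 0 in every library had a median of 3 CpG dinucleotides and 20.7% held the GC box. Promoters were matched for 50 of 93 named genes, and a match of letters is no proof of binding.

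Of 637 genes classed as surface genes, 209 (32.8%, against 42.6% of all genes) were at a TPM of at least 1 in every library. Together the 637 genes held 7.02% of TPM (6.51 to 7.45). Beyond Cd74, Cd52, Ly6e and the class II chains, the signalling chains of the B cell receptor were the highest, with Cd79b at 2395 TPM (2011 to 2731) and Cd79a at 2249 TPM (1788 to 2549). The class I genes came next. B2m was at 2224 TPM (1803 to 3578), H2-D1 at 1737 TPM (1408 to 2271) and H2-K1 at 1193 TPM (930 to 1487), and their values are uncertain to the extent that H2 genes share sequence. Cd37, a tetraspanin, was at 1181 TPM (999 to 1378) and H2-DMb2, a chain of the peptide exchange factor H2-DM, at 1103 TPM (900 to 1194). H2-D1 and H2-K1 were lowest in HET replicate 2, while B2m and H2-K1 were highest in KO replicate 6. Within the class, 23 of 130 G protein-coupled receptor genes and 41 of 98 cytokine and chemokine receptor genes were at a TPM of at least 1 in every library. S1pr2 was the highest of the former and Tnfrsf13c, the BAFF receptor, at 767 TPM the highest of the latter.

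Of 444 genes classed by symbol as secreted, other than immunoglobulin, 48 (10.8%, against 42.6% of all genes) were at a TPM of at least 1 in every library. The class held 0.670% of TPM (0.561 to 0.737). Jchain, which joins IgM and IgA into polymers, was the highest at 1221 TPM, followed by the cytokine Mif at 1131 TPM (932 to 1388), Apoe at 651 TPM (433 to 831) and Ltb, which encodes lymphotoxin beta, at 623 TPM (517 to 718). Lymphotoxin beta is a membrane protein, so that the class set by symbol is not exact for Ltb. Slpi, a protease inhibitor, was at 401 TPM (261 to 565), Ly86, the partner of the receptor RP105, at 313 TPM (288 to 423) and Cst3, a cysteine protease inhibitor, at 257 TPM (218 to 299). Psap, a precursor of lysosomal activators, was at 218 TPM and ranged from 107 in KO replicate 1 to 374 in KO replicate 6. Il16 was at 206 TPM (137 to 224) and Manf, a factor of the endoplasmic reticulum stress response, at 142 TPM (118 to 212).

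The spread of levels between libraries differed by gene class. Over 1784 genes with a median TPM of at least 100, the SD of log2(TPM + 1) had a median of 0.18. It was 0.66 for the 101 immunoglobulin genes among them and 0.18 for the other genes. All 10 genes with the highest SD and 45 of the highest 50 were immunoglobulin genes. At a median TPM of at least 10, 5 of the 10 highest and 32 of the 50 highest were immunoglobulin genes, and none of the 10 named here was among the 10 highest. Without HET replicate 1, 5 of the 10 were kept. Ighv1-82 had the highest SD, 1.61, with 1993 TPM in WT replicate 1, 1359 TPM in KO replicate 4 and 58.2 to 355 TPM in the other 8 libraries. Igkv17-127, with an SD of 1.31, was high in the same 2 libraries, at 3761 and 2233 TPM, and at 233 to 925 TPM in the others. Single libraries were also highest for Igkv12-98 (995 TPM in KO replicate 5), Igkv8-24 (1514 TPM in KO replicate 6) and Igkv3-4 (1215 TPM in WT replicate 2). The other 5 genes of the 10 were Ighv7-3, Igkv8-21, Igkv4-68, Igkv2-137 and Igkv5-39, with SD from 1.04 to 1.34.

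The 10 genes with the lowest SD depended on the libraries: 4 of them were kept without KO replicate 6, 5 without KO replicate 2 and 6 without KO replicate 1. Ube2m, the conjugating enzyme of NEDD8, varied least, from 198 to 218 TPM with an SD of 0.04. The late endosome GTPase gene Rab7, the splicing genes Sf3b4 and Srsf9, the translation gene Eif4e2, the proteasome gene Psmd8, the lipid transfer gene Gltp, the cathepsin gene Ctsh and Rac2, a GTPase of blood cells, had SD from 0.05 to 0.06. Rac2 was the most abundant of them, at 1353 TPM (1233 to 1397).

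**Figure D5:**
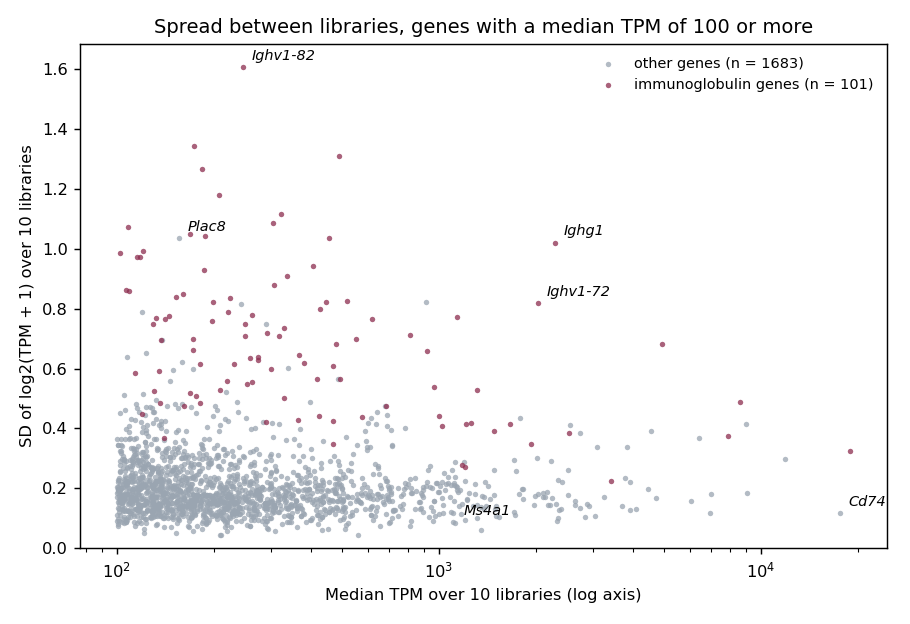
SD of log2(TPM + 1) over the 10 libraries (y axis) against median TPM (x axis, log axis) for genes with a median TPM of at least 100, with 1 point per gene. The 101 immunoglobulin genes have a median SD of 0.66 and the other genes one of 0.18, and Cd74 and Ms4a1 are labelled as abundant genes of low spread (0.12 and 0.09).

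Outside the immunoglobulin loci, the genes with the highest SD, named after their values were seen, were Plac8 (SD 1.04, 40.4 to 417 TPM), Ly6d (0.82, 400 to 2560 TPM), Sub1 (0.82, 80.6 to 540 TPM) and S100a10 (0.79, 39.5 to 225 TPM). All of them were highest in KO replicate 6, and for each the 2 HET libraries had the 2 lowest values. None of them was called by genotype with edgeR. DESeq2's likelihood ratio test called S100a10 (adjusted p = 0.0119), Sub1 (adjusted p = 0.0313) and Plac8 (adjusted p = 0.0819), but not Ly6d.

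Several gene families were largely undetected. Of 39 Hox genes, 54 defensin genes and 34 bitter taste receptor genes, none was at a TPM of at least 1 in every library. The same held for all but 2 of 54 keratin genes and all but 4 of 331 vomeronasal receptor genes. Of 1150 olfactory receptor genes, 13 were at this level in every library and 506 were listed at 0 in all. Olfr1033 (chr2:86020633-86045171) stood apart from its family with a median of 689 TPM (457 to 1080), against 11.4 TPM for the next gene, Olfr1388.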

How the data were processed

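Per the study's methods, NP-binding GL7+IgD- GC B cells were sorted from immunised mice, and SMART-Seq v4 and Nextera libraries were sequenced as paired ends. The authors quantified transcripts with Salmon (version 0.9.1 in the submitters' processing notes, which also list DESeq2 2.11.40.6) against Gencode vM17 (GRCm38), and deposited for each transcript its TPM and its estimated counts, 1 table per library. The chemistry amplifies polyadenylated RNA without molecular identifiers, so that counting limits cover counting error only.

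Here, TPM and estimated counts were summed over 64019 transcripts to 22366 gene symbols (22380 gene identifiers, 14 symbols with more than 1). Gene coordinates are those of Gencode vM21 on GRCm38, which located 22349 identifiers. A gene was counted as detected at a TPM of at least 1 in every library. Levels are given as the median with the lowest and highest library. Spread is the SD of log2(TPM + 1), with a pseudocount of 1. Genotype was tested on estimated counts, rounded to whole numbers, with edgeR 4.0.16 in R 4.3.3 (TMM scaling, filterByExpr, quasi-likelihood F test over the 3 genotypes, Benjamini-Hochberg adjusted p under 0.1, the study's threshold), after the script was tested on simulated data. limma 3.58.1 and DESeq2 1.42.0 were alternatives. Other results are descriptions without a test. Each library is 1 mouse.

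The genes named were the 25 highest outside and 15 highest within the immunoglobulin loci, the 15 highest transcription factor and surface genes, the 10 highest secreted genes, the GC, dark zone and light zone lists, the highest and defining members of other lists, the 10 highest and 10 lowest SD at a median TPM of at least 100, and genes called by genotype. The sample group, lists and tests were chosen with earlier results of these data known. The secreted class was corrected, and the gene families, the motifs and the examples of DNA replication, mitosis, receptor classes and isotypes were chosen, after values were seen. Classes were set by symbol and are approximate. Immunoglobulin, histone, globin, H2 and Bcl2a1 genes have near-identical copies among which reads can be split. RefSeq promoters (GRCm38.p6) were matched by gene. Some genes named by this rule are not reported here.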

Additional observations from a re-analysis of the deposited data

Results flagged for a closer look

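For 196 values, the highest or lowest library was set against the others by Dixon's criterion, once among the 10 libraries and once among the 6 KO libraries. The values were those of named genes, summed marker lists, the class shares of TPM and the number of genes at a TPM of at least 1. A single library stood apart for 29 of these values among the 10 libraries and for 20 among the 6 KO libraries. Chance flags about 1 in 20 groups, but these counts cannot be set against that rate, since the values checked include genes named for their high SD over the same libraries (Ighv7-3, Igkv12-98, Igkv8-24 and Igkv4-68 among the 29, and Ighv1-82, Igkv17-127, Ighv7-3, Igkv12-98 and Igkv8-24 among the 20), and several rest on levels under 1 TPM.

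KO replicate 6 accounted for 16 of the 29. It was high for mt-Co2 (11025 TPM), Iglj1 (3251), Ighv7-3 (431), Igkv8-24 (1514), Igkv4-68 (338), Bcl2a1b (217), Cd38 (87.5), Tnfrsf17 (13.6), Nkg7 (11.4), Mpeg1 (1.84) and the summed NK list (11.4 TPM, nearly all of it from Nkg7). It was low for Coro1a (2429 TPM), H2-Eb1 (2127), H2-DMb2 (900), Mef2b (291) and Lck (77.0). Among the KO libraries it stood apart again for Coro1a, Iglj1, Bcl2a1b, Tnfrsf17, Nkg7, Ighv7-3, Igkv8-24 and the NK list, and in addition for mt-Co1 (6560 TPM). The cause was not tested.

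HET replicate 2 was high for Cxcr4 (58.4 TPM), for the neutrophil genes S100a8 (9.34), S100a9 (17.5) and Ngp (4.66) and for the neutrophil list as a sum (32.6 TPM). KO replicate 1 was high for Pfn1 (5108 TPM) and for Col1a2 at 0.0972 TPM. KO replicate 5 was high for Igkv12-98 (995 TPM), Cxcl13 (0.705) and Gzma (0.402). Pf4 was highest in KO replicate 4 (6.58 TPM), Ppbp in WT replicate 1 (0.343) and Ncr1 in WT replicate 2 (1.49).

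Among the KO libraries, KO replicate 4 was high for the myeloid list as a sum (994 TPM), Lyz2 (694), Itgam (14.4), Pf4, Ighv1-82 (1359) and Igkv17-127 (2233). The library labelled KO replicate 2 was high for Zbtb38 (46.1 TPM). KO replicate 5 stood apart for Igkv12-98, Cxcl13 and Gzma, and KO replicate 1 for Col1a2, as among the 10 libraries.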

How the results depend on the processing

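On the scale of CPM of estimated counts, with no division by transcript length, the immunoglobulin share was 2.31% in place of 9.78% and the share of the 100 highest genes 19.5% in place of 29.6%. A minimum of 10 TPM in every library left 6152 detected genes. With any 1 library left out, detected genes ranged from 9524 to 9756, the immunoglobulin share from 9.47 to 10.1%, the share of the 100 highest genes from 29.4 to 29.8%, and all 12 GC markers were detected. The number of genes called by genotype depended on the setting. It was 1 at an adjusted p under 0.05, 254 by DESeq2's likelihood ratio test, 7 and 8 by limma on log2(TPM + 1) and log2(TPM + 0.1), and 0 to 3 with 1 library left out. The cause of these differences was not tested. Leaving out transcripts under 100 bases, an alternative chosen after seeing the data, gave an immunoglobulin share of 8.69%. Order by CPM kept 15 of the 25 highest genes outside the immunoglobulin loci.

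With the replicate block, 50 genes were called in place of 2, and Zbtb38 had an adjusted p of 0.107 (edgeR). Deviations of same-numbered libraries from their group means correlated between -0.0197 and 0.0920 over 6 pairs. With 2 libraries each in WT and HET, the deviations within such a group mirror each other, so that the 6 pairs are not independent. KO libraries without a same-numbered WT or HET library did not enter. Whether same-numbered libraries share more than a number thus cannot be decided from these values.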

Other observations

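Olfr1033, the only olfactory receptor gene with a median TPM above 100, drew 99.9 to 100% of its estimated counts from 1 of its 5 transcripts, which is 316 bases long and held 1273 to 2514 estimated counts per library. It was lowest in KO replicate 6 and highest in HET replicate 2.

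Ighv1-82 and Igkv17-127 were each highest in WT replicate 1 and second in KO replicate 4, which carry different genotype labels. Whether the heavy and light chains come from the same cells cannot be read from bulk libraries.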
